A study of Mus musculus with 7 samples.

Results

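A set of 30 genes that mark Purkinje cells was followed in whole cerebellum of CicKO mice (En1-Cre; Cicflox/flox, 4 libraries) and of mice titled Wildtype (Cicflox/+, 3 libraries). The members were chosen by name, leaving out channel and glutamate receptor genes, and all 30 were found among the 24421 gene symbols of the count files. All 30 also passed the filter on low counts, with no fewer than 728 counts of any member in any library. Both groups are C57BL/6; their age and sex are not stated. The controls carry a floxed Cic allele themselves and no Cre is named for them, so Cre itself and the deletion cannot be told apart. En1 is active early in the tissue that forms the midbrain and cerebellum, so Cre driven by it acts in many cerebellar cell types and the deletion is not specific to Purkinje cells.

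Purkinje cells are the large inhibitory neurons of the cerebellar cortex and its sole output. Glutamate from parallel fibres activates the receptor mGluR1, which works through a Gq protein and phospholipase C beta to make inositol trisphosphate and release calcium from internal stores. The cells buffer that calcium with abundant binding proteins. They are also the cells that degenerate in spinocerebellar ataxia type 1, the disease of ATXN1, the protein that CIC binds. Their identity rests on nuclear factors such as RORA, and they form parasagittal stripes that differ in zebrin II, the product of Aldoc.

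Library depth was 102653765 to 121285349 gene counts. Cic itself, the deleted gene, was at 144 to 147 CPM (TMM-scaled CPM, reads relative to library size) in the CicKO libraries and 216 to 257 CPM in the Wildtype libraries, a log2 fold change of -0.66 (edgeR adjusted p = 0.00256). CicKO 3 and Wildtype 3 stand apart from the others: 12 choroid plexus genes summed to 8600 CPM in CicKO 3 against 47.6 to 131 CPM in the other CicKO libraries, and to 6208 CPM in Wildtype 3 against 77.3 and 147 CPM in Wildtype 1 and 2. Xist was at 1556 and 1596 CPM in CicKO 1 and 2 and at no more than 14.7 CPM in every other library. Only CicKO libraries held the high Xist values that mark female tissue, so sex is partly confounded with genotype. Because of the choroid plexus transcripts, calls are also given without CicKO 3, and without both CicKO 3 and Wildtype 3, where they change. The plot of fold changes gives the estimate of every member without CicKO 3.

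The Purkinje genes were measured deeply and covered a wide span of levels. Per kilobase of merged exons, Aldoc was highest at 1014 ± 84.5 CPM per kb in CicKO and 843 ± 158 CPM per kb in Wildtype (SD, n = 4 and 3). Pvalb, the calcium buffer parvalbumin, followed at 640 ± 103 and 617 ± 30.1 CPM per kb in CicKO and Wildtype, and Pcp4, a small calmodulin-binding protein, at 649 ± 77.0 and 579 ± 47.8 CPM per kb. These 2 genes do not differ in level beyond their spread. Car8, a carbonic anhydrase relative without enzyme activity that binds the inositol trisphosphate receptor, was at 575 ± 123 CPM per kb in CicKO and 509 ± 76.5 CPM per kb in Wildtype. At the other end stood the transcription factor genes Ebf2, at 1.93 ± 0.685 and 1.55 ± 0.523 CPM per kb, and Foxp2, at 0.805 ± 0.0909 and 0.791 ± 0.00889 CPM per kb in CicKO and Wildtype. The defining markers Calb1, Car8, Pcp2 and Ppp1r17 were all well above zero in every library. Several members are also made elsewhere in the cerebellum: Aldoc in astrocytes, Pvalb and Rora in molecular layer interneurons, Gnaq in most cells.

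**Figure D1:**
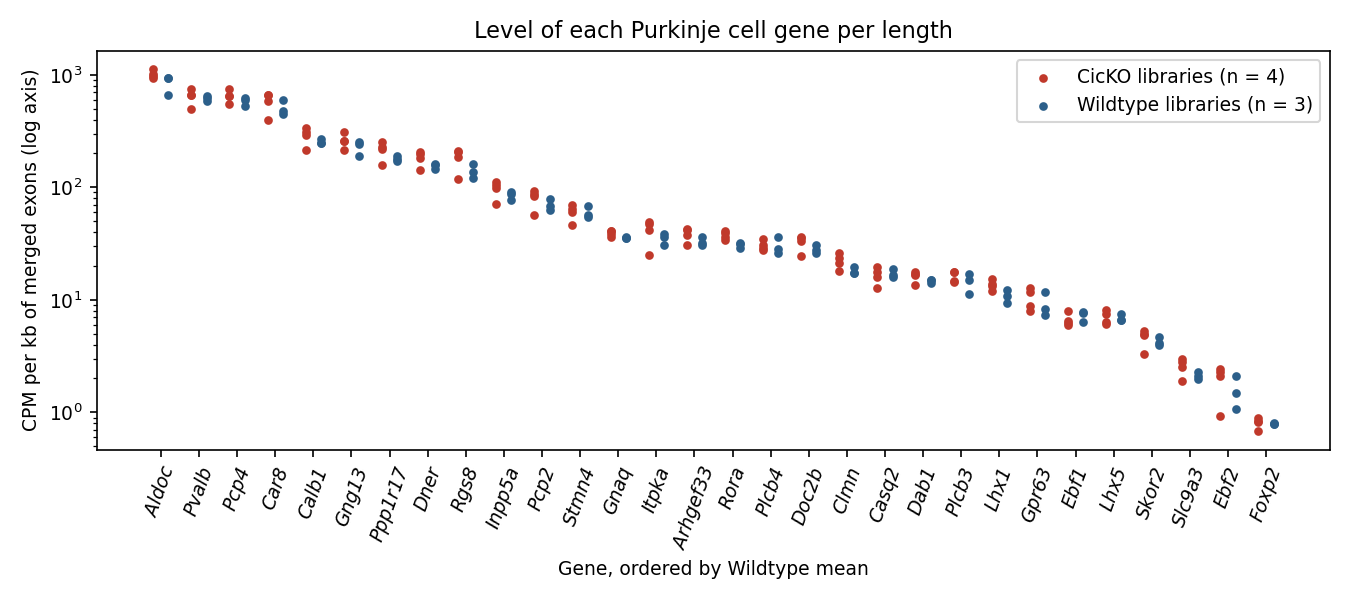
Level of each of the 30 genes in CPM per kb of merged exons (log axis), ordered by the Wildtype mean; each point is 1 library, CicKO left of Wildtype. Levels run from 843 CPM per kb for Aldoc to 0.791 CPM per kb for Foxp2 in Wildtype, and the 2 groups overlap for every gene but Rora.

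No Purkinje gene passed the test for a difference between CicKO and Wildtype. With all 7 libraries edgeR called 0 of 30 higher and 0 of 30 lower at an adjusted p below 0.05, where 2.08% of all 16905 genes tested were called, 1.25% higher and 0.828% lower. At an unadjusted p below 0.05, 4 members were higher (Rora, Lhx1, Clmn and Gnaq) and 0 lower, beside 8.06% of all genes higher and 8.16% lower. DESeq2 called 2 higher (Lhx1 and Rora), beside 3.28% of all genes, and limma-voom 0, beside 1.14%. With replicate number as a block 1 was called higher, Lhx1, beside 1.83%. The estimates lay mostly on one side: 28 of the 30 log2 fold changes were positive, with a median of 0.18, while the median over all genes tested was -0.0044 and 48.8% were positive. With replicate number as a block 24 were positive and 6 negative, with a median of 0.10. The members varied together by library: 28, 19, 2 and 27 were above their group mean in CicKO 1 to 4. Their signs are therefore not 30 separate results. In bulk tissue, a different share of Purkinje cells and a different amount of RNA per Purkinje cell cannot be told apart. All 30 estimates were within 0.5 on the log2 scale of no change, and for 29 genes the 95% interval stayed below a log2 fold change of 1. The exception was Ebf2, with an interval of -0.55 to 1.18. The intervals of 15 genes reached past 0.5, so a higher level of that size is not excluded for them.

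Of the single omissions, that of CicKO 3 moved the members' median log2 fold change most, from 0.18 to 0.29. Without CicKO 4 the median was 0.11, and without Wildtype 3 it was 0.13. CicKO 3 was below the other 3 CicKO libraries for 28 of 30 Purkinje genes, beside 34.6% of all genes, by a median of -0.46 on the log2 scale (-0.0082 over all genes). It was below every Wildtype library for 19 members, within their range for 8 and above it for 3 (Rora, Aldoc and Ebf1), beside 31.6% of all genes below and 28.3% above. Ebf1 and Aldoc were the 2 members for which CicKO 3 was the highest CicKO library, as it was for 33.1% of all genes. CicKO 1, 2 and 4 were all above all 3 Wildtype libraries for 21 of the 30, beside 12.6% of all genes. Without CicKO 3, edgeR called 9 of the 30 higher and 0 lower, beside 2.94% of 16755 genes called higher, and the median of the members was 0.29. Those 9 are Rgs8, Calb1, Doc2b, Ppp1r17, Rora, Clmn, Slc9a3, Dner and Dab1. Leaving out any other single library gave 0 calls of members. Beside them, 0.386% to 0.588% of all genes were called higher, or 2.16% without Wildtype 2. Leaving out CicKO 3 and Wildtype 3 together gave 1, Rora, beside 1.52% of genes called higher, with a median of 0.26. The others of the 9 were not called then, with edgeR adjusted p from 0.0584 (Ppp1r17) to 0.137 (Dab1). Their log2 fold changes were then 0.18 (Dab1) to 0.43 (Rgs8), against 0.21 (Dab1) to 0.53 (Rgs8) without CicKO 3 alone. Their calls without CicKO 3 thus did not hold without Wildtype 3 too, in a fit with fewer libraries. Summed over the members without Aldoc, CPM came to 12245, 11292, 8382 and 12533 in CicKO 1 to 4, against 9527, 10371 and 9080 in Wildtype 1 to 3.

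**Figure D2:**
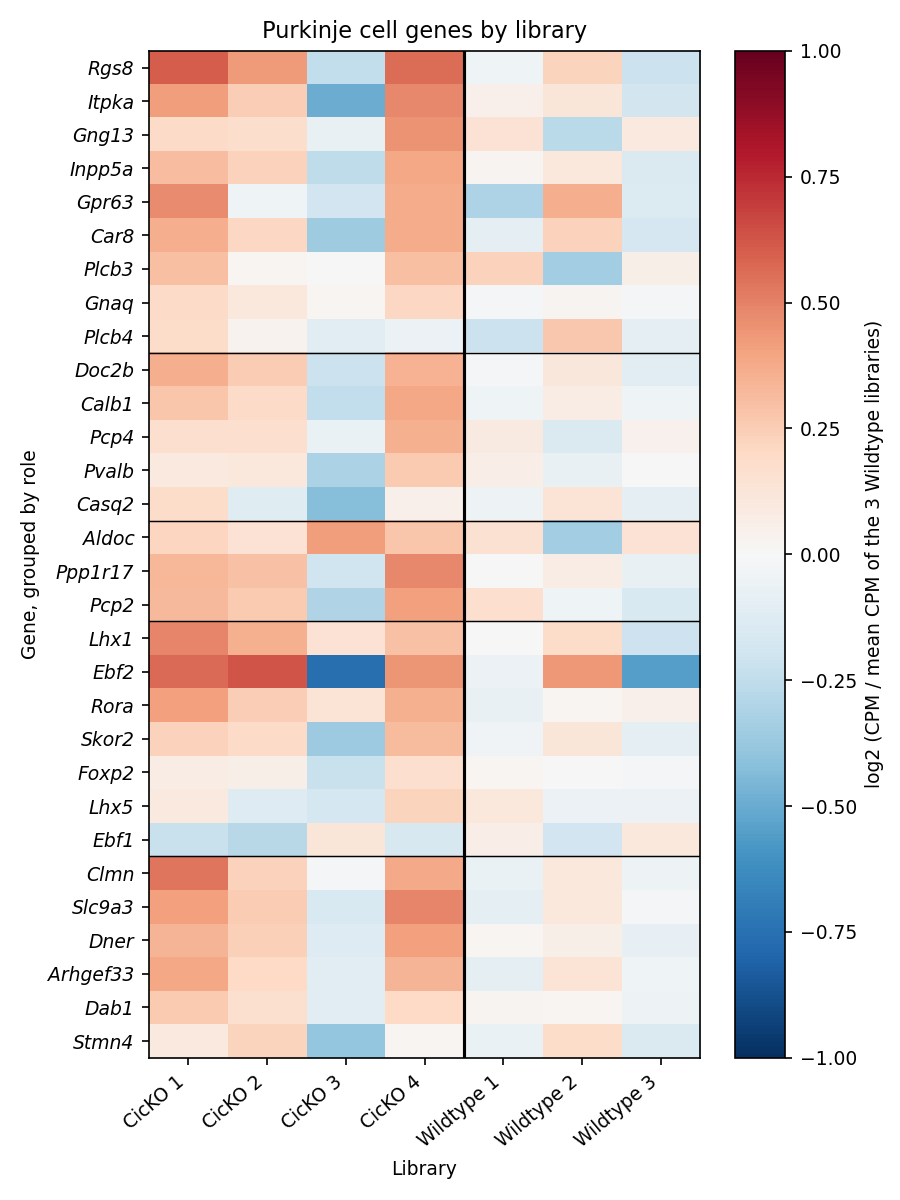
Heat map of the log2 ratio of each library's CPM to the mean of the 3 Wildtype libraries, with genes grouped by role and CicKO left of the vertical line. CicKO 1, 2 and 4 are mostly red and CicKO 3 mostly blue: it is below the other CicKO libraries for 28 of 30 genes, Aldoc and Ebf1 being the exceptions.

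Nuclear regulators held the gene that came closest to a call. Rora encodes the orphan nuclear receptor whose loss in staggerer mice blocks Purkinje cell maturation. It was at 533, 475, 442 and 514 CPM in CicKO 1 to 4, against 381, 408 and 416 CPM in Wildtype 1 to 3. Every CicKO library was above every Wildtype library, which held for no other member and for 7.06% of all genes; no member was lower in every CicKO library, as 8.36% of all genes were. Its log2 fold change was 0.29 (SE 0.0759, adjusted p = 0.102), and over the alternatives it ranged between 0.25 and 0.36 with adjusted p from 0.00455 to 0.488. It passed with DESeq2 (0.00455), without CicKO 3 (0.0226) and without both CicKO 3 and Wildtype 3 (0.0435).

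The LIM homeodomain genes Lhx1 and Lhx5, which act together in Purkinje cell differentiation, did not look alike. Lhx1 was at 61.8, 56.3, 48.7 and 54.0 CPM in CicKO 1 to 4, against 44.0, 50.1 and 38.3 CPM in Wildtype 1 to 3. Only Wildtype 2 lay inside the CicKO range. Its log2 fold change was 0.32 (SE 0.106, adjusted p = 0.184), and it passed with DESeq2 (adjusted p = 0.0433), with replicate number as a block (0.0443) and with choroid plexus level in the model (0.0457). Lhx5 was at 19.9, 17.0, 16.5 and 21.6 CPM in CicKO 1 to 4, against 20.0, 17.9 and 17.9 CPM in Wildtype 1 to 3. These values overlap throughout, and the 95% interval of the log2 fold change was -0.22 to 0.25. The ratio of Lhx1 to Lhx5 CPM was 2.97 ± 0.346 in CicKO and 2.38 ± 0.364 in Wildtype (SD), with overlapping libraries; whether the fold changes of the 2 genes differ was not tested.

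The COE-family factor genes Ebf1 and Ebf2 differed between libraries in opposite ways. Ebf2, which marks zebrin-negative Purkinje cells, was at 15.9, 16.7, 6.40 and 14.6 CPM in CicKO 1 to 4, against 10.4, 14.6 and 7.37 CPM in Wildtype 1 to 3. Both low values are the libraries rich in choroid plexus transcripts, CicKO 3 and Wildtype 3. Ebf1 had the lowest log2 fold change of all members, -0.13 (adjusted p = 0.612), with 61.1, 58.6, 77.4 and 63.6 CPM in CicKO 1 to 4, against 74.7, 62.5 and 76.5 CPM in Wildtype 1 to 3. With choroid plexus level in the model the log2 fold changes were 0.15 for Ebf2 and -0.11 for Ebf1 (adjusted p = 0.559 and 0.422). Without CicKO 3 they were 0.55 and -0.22 (adjusted p = 0.241 and 0.164), and with all libraries that of Ebf2 was 0.32. Skor2, a corepressor that acts in Purkinje cell differentiation, and Foxp2, a forkhead factor, had log2 fold changes of 0.12 and 0.03 and overlapping groups. Without CicKO 3 the log2 fold changes were 0.25 and 0.10. Of the 7 nuclear regulators 0 were called and 6 had a positive estimate, with a median of 0.12.

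The mGluR1 and G protein cascade had 9 members, of which 0 were called and all 9 had a positive estimate (median 0.18). Rgs8, a GTPase-activating protein that shortens G protein signals, had the highest log2 fold change of all 30 genes, 0.37 (SE 0.205, 95% interval -0.10 to 0.85, adjusted p = 0.426). It was at 2039, 1803, 1136 and 1974 CPM in CicKO 1 to 4, against 1307, 1563 and 1160 CPM in Wildtype 1 to 3. CicKO 3 was the lowest of the 7 libraries, and the other 3 CicKO libraries were above all Wildtype libraries. Without CicKO 3 the log2 fold change was 0.53 (adjusted p = 0.0325). CicKO 3 was also the lowest of the 7 libraries for Itpka, the kinase that phosphorylates inositol trisphosphate, Inpp5a, a phosphatase that removes it, and Car8, whose log2 fold changes were 0.21, 0.19 and 0.18 (adjusted p = 0.704, 0.574 and 0.693). Without CicKO 3 they were 0.39, 0.31 and 0.32 (adjusted p = 0.0511, 0.0569 and 0.14). Gnaq, the alpha subunit of Gq, was at 252, 237, 224 and 254 CPM in CicKO 1 to 4, against 217, 225 and 219 CPM in Wildtype 1 to 3. CicKO 3 lay inside the Wildtype range. The log2 fold change of Gnaq was 0.13 (SE 0.0554, 95% interval 0.0056 to 0.26, adjusted p = 0.287). Gng13, a G protein gamma subunit, and the orphan receptor gene Gpr63 had 0.20 and 0.18 (adjusted p = 0.529 and 0.73).

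The phospholipase C beta genes Plcb3 and Plcb4 mark complementary Purkinje stripes, Plcb3 the zebrin-positive and Plcb4 the zebrin-negative ones. Plcb3 was at 124, 102, 101 and 123 CPM in CicKO 1 to 4, against 118, 79.0 and 105 CPM in Wildtype 1 to 3 (log2 fold change 0.16, adjusted p = 0.627). Plcb4 was at 308, 277, 250 and 261 CPM in CicKO 1 to 4, against 233, 326 and 253 CPM in Wildtype 1 to 3 (log2 fold change 0.02, adjusted p = 0.964). The groups overlap for both. The ratio of Plcb3 to Plcb4 CPM was 0.401, 0.368, 0.403 and 0.474 in CicKO 1 to 4, against 0.504, 0.242 and 0.414 in Wildtype 1 to 3, so the extremes on both sides were Wildtype libraries. Without Wildtype 2 the log2 fold changes of Plcb3 and Plcb4 were 0.02 and 0.17 (adjusted p = 0.952 and 0.314), and with the share of reads assigned to no feature in the model they were 0.51 and -0.19 (0.244 and 0.767).

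Calcium and calmodulin binding genes numbered 5, with 0 called, 4 positive estimates and a median of 0.17. Calb1 encodes calbindin, the standard Purkinje cell marker. It was at 1499, 1412, 1040 and 1615 CPM in CicKO 1 to 4, against 1202, 1303 and 1200 CPM in Wildtype 1 to 3, with CicKO 3 lowest and the other CicKO libraries above all Wildtype libraries. Its log2 fold change was 0.17 (SE 0.138, adjusted p = 0.586), or 0.29 without CicKO 3 (adjusted p = 0.0473). Doc2b, a calcium sensor of vesicle release, was at 158, 146, 106 and 156 CPM in CicKO 1 to 4, against 121, 133 and 114 CPM in Wildtype 1 to 3. It showed the same order, with 0.21 (SE 0.137, adjusted p = 0.517), or 0.32 without CicKO 3 (0.0281). Pcp4 and Pvalb had 0.17 and 0.05 (adjusted p = 0.48 and 0.879). Casq2, a calsequestrin that stores calcium in the endoplasmic reticulum, had a negative estimate (-0.06, adjusted p = 0.869), which was positive without CicKO 3 (0.04).

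Of the genes named as Purkinje cell markers for their restricted expression, Ppp1r17, the substrate of cGMP-dependent protein kinase that inhibits protein phosphatases, was at 399, 388, 276 and 442 CPM in CicKO 1 to 4, against 315, 332 and 300 CPM in Wildtype 1 to 3. CicKO 3 was again lowest and the other 3 CicKO libraries highest. Its log2 fold change was 0.25 (SE 0.144, adjusted p = 0.442), or 0.37 without CicKO 3 (adjusted p = 0.0193). Pcp2, a modulator of Gi and Go proteins, was at 160, 154, 104 and 171 CPM in CicKO 1 to 4, against 144, 125 and 116 CPM in Wildtype 1 to 3 (log2 fold change 0.20, adjusted p = 0.616; 0.33 and 0.061 without CicKO 3). Aldoc was at 3194, 3032, 3680 and 3328 CPM in CicKO 1 to 4, against 3055, 2156 and 3040 CPM in Wildtype 1 to 3. CicKO 3 was its highest library and Wildtype 2 its lowest, and its log2 fold change was 0.27 (SE 0.131, adjusted p = 0.363). It was 0.12 without Wildtype 2 (adjusted p = 0.496) and 0.55 with the share of reads assigned to no feature in the model (adjusted p = 0.31).

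Pcp2 lies on chromosome 8 at 3623371 to 3625545 on the minus strand, and 941 of its 1828 merged exon bases are shared with Pet100 on the opposite strand. Reads there may be left out or counted for either gene, so its level of 80.6 ± 16.2 CPM per kb in CicKO and 70.2 ± 8.02 CPM per kb in Wildtype is uncertain. Pet100 was at 33.3 ± 4.48 CPM in CicKO and 32.2 ± 0.778 CPM in Wildtype (SD). In all, 7 members share exon bases with a gene of the files: Pcp2, Arhgef33, Gng13, Pcp4, Plcb3, Inpp5a and Dner.

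Genes of the cell surface, adaptors, cytoskeleton and transport numbered 6, with 0 called, 6 positive estimates and a median of 0.22. They held 4 of the 9 calls made without CicKO 3. Clmn, a membrane protein with an actin-binding calponin homology domain, was at 324, 262, 223 and 292 CPM in CicKO 1 to 4, against 214, 241 and 217 CPM in Wildtype 1 to 3 (log2 fold change 0.30, SE 0.12, adjusted p = 0.273; 0.0401 without CicKO 3). CicKO 3 lay inside the Wildtype range. Dner, a Notch ligand-like receptor that acts on Bergmann glia, was at 940, 875, 680 and 986 CPM in CicKO 1 to 4, against 753, 775 and 702 CPM in Wildtype 1 to 3 (0.23, SE 0.121, adjusted p = 0.405; 0.0278 without CicKO 3). Dab1, the adaptor of reelin signalling that guides Purkinje cell migration, was at 140, 130, 108 and 133 CPM in CicKO 1 to 4, against 119, 118 and 112 CPM in Wildtype 1 to 3 (0.13, SE 0.0837, adjusted p = 0.489; 0.0457 without CicKO 3). CicKO 3 was the lowest of all libraries for Dner, Dab1 and Slc9a3. Slc9a3, a sodium-proton exchanger, was at 15.6, 14.0, 10.6 and 16.4 CPM in CicKO 1 to 4, against 10.9, 12.6 and 11.6 CPM in Wildtype 1 to 3 (0.27, SE 0.145, adjusted p = 0.41; 0.0477 without CicKO 3). Arhgef33 and Stmn4, a microtubule-destabilising stathmin, had log2 fold changes of 0.22 and 0.01 (adjusted p = 0.413 and 0.992).

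**Figure D3:**
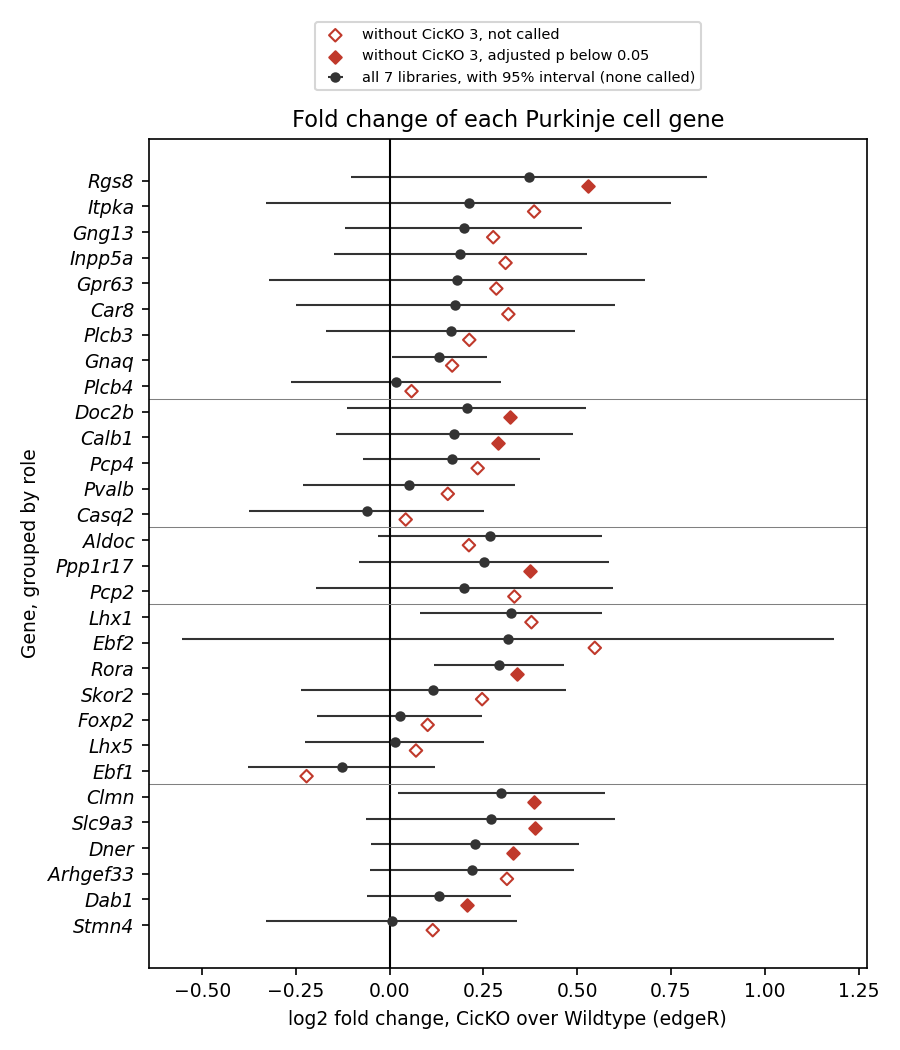
Log2 fold change of CicKO over Wildtype for each gene with its 95% interval from all 7 libraries (circles), and the estimate without CicKO 3 (diamonds, filled where the adjusted p was below 0.05). No gene was called with all libraries and 9 were without CicKO 3; Rgs8 has the highest estimate with all libraries (0.37) and Ebf1 the lowest (-0.13).

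Promoter sequence was looked at because many members share an order of libraries and because CIC and RORA bind known DNA motifs. RefSeq start sites on GRCm38.p6 were matched for 21 of the 30 genes, with 35 windows of 250 bases before to 50 after a start; Calb1, Car8, Ppp1r17, Skor2, Foxp2, Lhx5, Stmn4, Ebf2 and Doc2b had no entry. The CIC octamers TGAATGAA and TGAATGGA, on either strand, were in 0 and 1 of the 35 windows, beside 1.30% and 1.21% of all 32851 windows. The half-site AGGTCA was searched for RORA by these bases alone, on either strand, whatever the bases before it. It was in 9 of the 35 windows, beside 16.3% of all windows. By gene it was in 7 of 21 (Arhgef33, Dner, Gpr63, Pcp2, Pcp4, Plcb3 and Rgs8), beside 18.1% of all genes. Overlapping windows of Pcp2 hold the same half-site, so that site counts more than once among the 9. The members had 35 windows for 21 genes and all genes 32851 for 27025, so the gene shares are not like for like. Motifs do not overlap one another in these windows. Below are the single match to a CIC octamer and the half-sites of Rgs8, the member with the highest fold change, and of Dner, which has 2 in 1 window, 30 bases each with the match in capitals, read 5′ to 3′ on the gene's strand.
Pcp2 octamer, chr8:3625269-3625298, minus strand: ctcagggcaaaTGAATGGAttcttagtact
Rgs8 half-site, chr1:153665525-153665554, plus strand: aggatgcatgccAGGTCAgctctgcttggg
Dner half-site, chr1:84696315-84696344, minus strand: cttggatgtgcaAGGTCAggtccttgagaa
Dner half-site, chr1:84696206-84696235, minus strand: ctcgtgagaataAGGTCAggccggtcccgc
The Pcp2 octamer begins 5 bases before the start of a short RefSeq transcript, inside the gene. A match is a stretch of letters and does not show that a factor binds there.

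The 250 bases before the main starts of Pcp2 and Rora are given because Pcp2 is the classical Purkinje cell promoter, with its half-site in capitals, and Rora is the gene whose groups did not overlap.
Pcp2, chr8:3625548-3625797, minus strand: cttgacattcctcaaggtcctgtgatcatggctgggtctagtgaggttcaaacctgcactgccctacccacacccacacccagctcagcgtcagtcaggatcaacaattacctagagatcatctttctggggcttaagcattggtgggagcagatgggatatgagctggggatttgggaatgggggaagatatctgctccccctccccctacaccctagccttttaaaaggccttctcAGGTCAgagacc
Rora, chr9:68653536-68653785, plus strand: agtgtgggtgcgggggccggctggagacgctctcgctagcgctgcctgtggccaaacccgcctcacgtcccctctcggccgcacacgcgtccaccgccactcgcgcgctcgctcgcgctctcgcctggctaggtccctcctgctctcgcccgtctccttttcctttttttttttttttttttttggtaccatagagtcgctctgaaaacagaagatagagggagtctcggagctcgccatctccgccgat
The Pcp2 half-site begins 12 bases before the start. None of the 3 motifs is in the Rora stretch.

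Of 18 listed partners of these genes in mGluR1 and calcium signalling, 15 had a positive estimate, with a median of 0.17. Among them edgeR called 1 higher and 0 lower, beside 1.25% and 0.828% of all genes. The one was Cacna1g, a T-type calcium channel gene, at 478, 421, 424 and 461 CPM in CicKO 1 to 4, against 353, 357 and 339 CPM in Wildtype 1 to 3 (log2 fold change 0.35, SE 0.0625, adjusted p = 0.0317). It was not lowest in CicKO 3, and its groups did not overlap, as held with CicKO higher for 7.06% of all genes. It was called under 11 of 18 alternatives and lost under 7 (adjusted p up to 0.275), among them the omission of CicKO 1, 2 or 4 or of Wildtype 1 or 3. Of 9 further Purkinje-enriched genes 0 were called higher and 1 lower, with 6 positive estimates and a median of 0.13. The lower one was Nefh, the heavy neurofilament of large neurons, at 107 ± 4.85 CPM in CicKO and 124 ± 0.771 CPM in Wildtype (log2 fold change -0.22, SE 0.0451, adjusted p = 0.0492), a call made under 5 of 18 alternatives and lost with replicate number as a block (-0.23, adjusted p = 0.067).

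Markers of other cell types varied between the same libraries. The mean log2 CPM of the Purkinje genes was 7.49, 7.37, 7.03 and 7.50 in CicKO 1 to 4, against 7.20, 7.26 and 7.13 in Wildtype 1 to 3. CicKO 3 was also the lowest of the 7 libraries for the other Purkinje-enriched genes (6.04), for granule neuron markers (8.25), molecular layer and Golgi interneuron markers (5.75), Bergmann glia and astrocyte markers (7.47) and microglia markers (3.79). Granule neuron markers were at 8.43 to 8.46 in the other CicKO libraries and 8.26 to 8.51 in Wildtype, with 0 of 16 called and a median log2 fold change of -0.01. Molecular layer and Golgi interneuron markers had a median of 0.01 and 1 of 12 called, Gad2, which was lower (-0.25, adjusted p = 0.0369). Bergmann glia and astrocyte markers had 4 of 16 called lower (Gdf10, Agt, Ndrg2 and Aqp4) with a median of -0.17, and oligodendrocyte markers 2 of 16 lower (Cldn11 and Hapln2) with a median of -0.33. Of all genes tested, 0.828% were called lower and 1.25% higher. Unipolar brush cell markers had their highest mean log2 CPM in CicKO 3 (5.42) and Wildtype 3 (5.15), with 0 of 6 called. Their summed CPM was lower in CicKO 3 (931) than in the other CicKO libraries (1122 to 1205). Among the CicKO libraries, Lmx1a, Eomes and Tbr1 were highest in CicKO 3, and the more abundant Calb2 and Dgkg were lowest there. Microglia, endothelial and choroid plexus markers had 0 of 10, 0 of 10 and 0 of 12 called. The part of these cell types in the values of the Purkinje genes was not tested beyond the fit with the choroid plexus score, in which the members' median was 0.13 and 1, Lhx1, was called higher beside 2.25% of all genes.

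**Figure D4:**
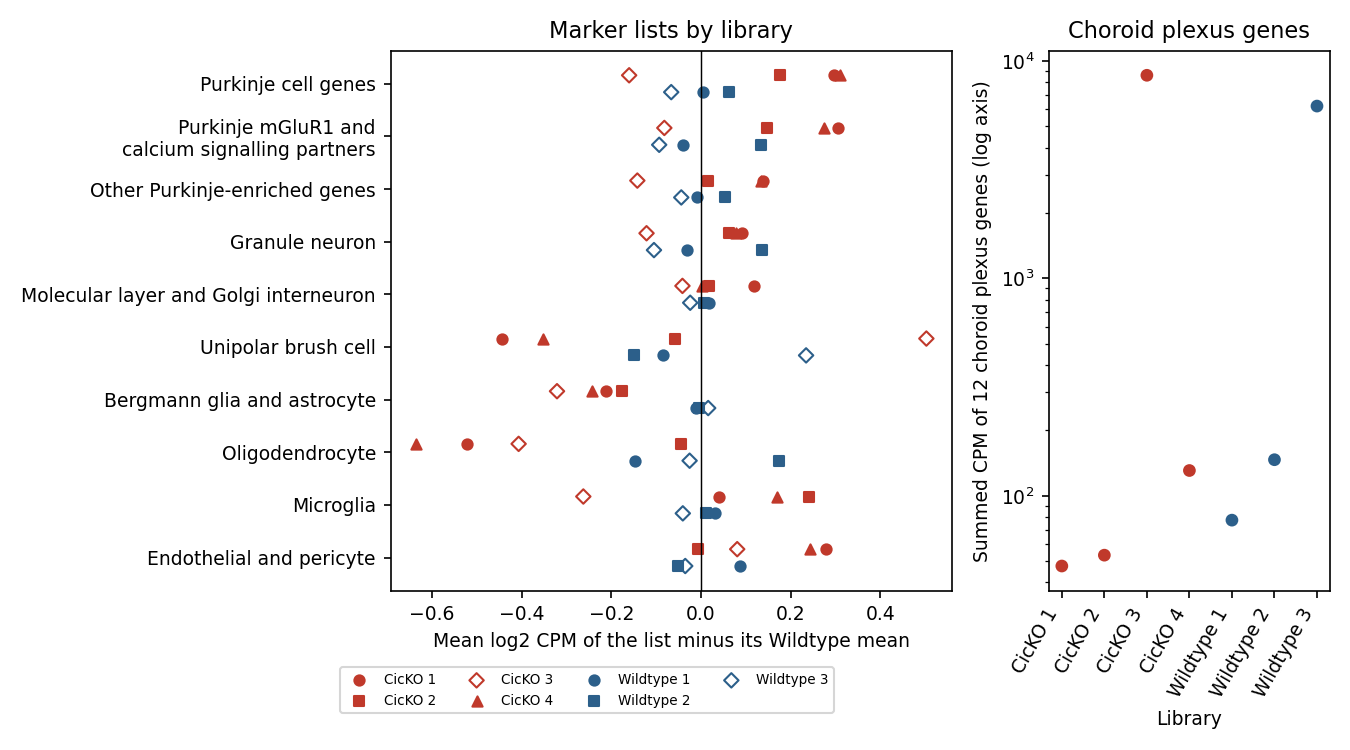
Left, mean log2 CPM of each marker list in each library minus the list's Wildtype mean (red CicKO, blue Wildtype, open diamonds CicKO 3 and Wildtype 3). Right, summed CPM of 12 choroid plexus genes on a log axis. CicKO 3 lies left of the other CicKO libraries for all 3 Purkinje lists and for the granule, interneuron, Bergmann glia and microglia lists, right of them for the unipolar brush cell list, and carries 8600 CPM of choroid plexus genes.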

How the data were processed

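RNA of whole cerebellum was made into amplified cDNA primed from poly(A) tails and at random, per the labels' protocols. The authors deposited 1 file of raw counts for each library. STAR 2.5.3a, HTSeq, DESeq2 and build mm10 are named in the submitters' processing notes; annotation, strand setting and filters are not stated there, so overlapping genes are uncertain. Of all entries, 16.0% to 19.0% were assigned to no feature; the 5 HTSeq summary rows were left out.

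Counts were analysed in R 4.3.3 with edgeR 4.0.16 (filterByExpr, 16905 genes, TMM scaling, robust quasi-likelihood test with genotype as the only term), tested on simulated data first. P-values were adjusted over all genes by Benjamini-Hochberg, with calls made below 0.05. Adjusted p-values are from this test unless named otherwise. The SE is the log2 fold change over the root of F, and 95% intervals use the test's degrees of freedom. Mean log2 CPM used a prior count of 2. DESeq2 1.42.0 and limma 3.58.1 were alternatives. Coordinates and exon lengths are from GENCODE M21 (GRCm38, which is mm10). Gene counts of 102653765 to 121285349 put 3 counts at 0.0247 to 0.0292 CPM, which covers counting error only.

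Separate animals are not stated for the libraries, so p-values may measure technical spread. Within groups, pairs of libraries varied 18.5 to 157 times more than sampling alone gives. Same-numbered libraries deviated together (correlations 0.145, 0.288 and 0.713), all above the limit of 0.1, but so did some of different numbers (0.319 for CicKO 1 with Wildtype 2). The test without a block is reported, and the blocked value stands beside a call it changes. The members and lists were chosen with earlier results of these data known. By rule, library values are given for members called under any setting, with the extreme fold changes, without overlap or in a family pair; Gnaq, Pcp2 and Aldoc were added after their values were seen.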

Additional observations from a re-analysis of the deposited data

How the results depend on the processing

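The count of members called higher was 0 with all 7 libraries, beside 1.25% of all genes. It was 2 with DESeq2, 1 with the replicate block, 1 without both CicKO 3 and Wildtype 3, 1 with choroid plexus level in the model, and between 0 and 9 when 1 library was left out, the 9 being without CicKO 3. It was 0 with RLE size factors, library size only, no filter, a filter of 1 CPM in 3 libraries, limma-voom, and the no-feature share or Xist as a covariate. Of all genes, only 0.272% were called higher with the no-feature share and 0.432% with Xist, so few calls of members could arise there. The share was 0.956% to 1.67% in the rest of these fits. It was 3.28% with DESeq2, 1.83% with the block and 1.52% without both libraries. With choroid plexus level it was 2.25%, and without CicKO 3 it was 2.94%. The count called lower was 0 throughout, beside 0.071% to 2.45% of all genes. The median of the members was positive under all 18 alternatives, from 0.10 with the replicate block to 0.29 without CicKO 3. The replicate block changed no other call of a member than that of Lhx1.

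Estimates near 0 turned negative for Stmn4 with limma-voom (-0.0045) and for Foxp2 (-0.031), Lhx5 (-0.066), Stmn4 (-0.014) and Pvalb (-0.037) with the replicate block. They did so for Lhx5 (-0.0067), Stmn4 (-0.046) and Plcb4 (-0.00056) with the choroid plexus score. The same held for Stmn4 (-0.079) and Plcb4 (-0.19) with the no-feature share and for Stmn4 (-0.086) and Plcb4 (-0.031) with Xist. Gpr63, at 0.18 in the reported test, was at -0.10 with the no-feature share. The cause was not tested. With 1 library left out the log2 fold change ranged from -0.063 to 0.075 for Lhx5, -0.073 to 0.11 for Stmn4, -0.073 to 0.17 for Plcb4, -0.15 to 0.043 for Casq2, -0.024 to 0.10 for Foxp2 and -0.026 to 0.15 for Pvalb. Aldoc was at 0.12 without Wildtype 2 and at 0.55 with the no-feature share, against 0.27 in the reported test.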

Other observations

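Wildtype 2 was the lowest of the 7 libraries for 4 members and the highest for 1, among them genes of the zebrin stripes. Wildtype 1 was the lowest for 5 members and the highest for 0. Wildtype 2 was lowest for Aldoc (2156 CPM) and Plcb3 (79.0 CPM), both of zebrin-positive Purkinje cells. It was highest for Plcb4 (326 CPM), of zebrin-negative cells. Wildtype 1 was the lowest for Plcb4 (233 CPM) and had the highest ratio of Plcb3 to Plcb4 (0.504). The ratio of Aldoc to Plcb4 CPM was 10.4, 10.9, 14.7 and 12.8 in CicKO 1 to 4, against 13.1 in Wildtype 1 and 6.61 in Wildtype 2, with Wildtype 3 between the lowest and the highest CicKO library. Aldoc is also made by astrocytes. Gng13 (145 CPM) and Pcp4 (539 CPM) were also lowest of the 7 libraries in Wildtype 2, so its low values were not limited to stripe genes. The share of all genes with an extreme value in Wildtype 2 was not computed. Wildtype 2 also had a higher share of reads assigned to no feature, 18.6%, where CicKO libraries had 18.2% to 19.0% and Wildtype 1 and 3 had no more than 16.5%. These values were noticed in the data, and the ratio was not tested.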
